A study of Mus musculus with 8 samples.

Results

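The collagen chains, the small leucine-rich proteoglycans and a short set of further matrix genes were followed in mouse lenses that express dnBrg1 and in wild type lenses. The members were taken by gene symbol. They are the probe sets that the array annotation assigns to 1 gene alone and that name a collagen alpha chain other than Col4a1 and Col4a2, or 1 of 17 listed genes (Ogn, Dcn, Lum, Bgn, Fmod, Prelp, Fn1, Fbn1, Fbn2, Postn, Tnc, Lox, Loxl1, Eln, Mfap2, Mfap5 and Pdgfrb). This gave 86 probe sets of 50 genes, out of 22626 probe sets tested and 12393 genes named by a probe set of their own. Collagen chains made up 34 of the genes with 55 probe sets, and the listed genes gave 16 genes with 31 probe sets. Fbn1 was not analysed here.

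Whole lenses were dissected from embryos at embryonic day 15.5 (E15.5), and 50 ng of RNA per sample was amplified, biotin-labeled and hybridized to 1 Affymetrix mouse expression array. There were 4 dnBrg1 and 4 wild type samples, called replicates 1 to 4 of each genotype. Brg1 is the motor of SWI/SNF complexes, which use ATP to remodel chromatin, and dnBrg1 is a mutant that cannot use ATP and acts as a dominant negative. The question was which RNAs change in the lens once Brg1 function is blocked in fiber cells.

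The dnBrg1 protein carries a FLAG tag and was made from an αA-crystallin promoter that is active in postmitotic lens fiber cells. No value here tests where else it was expressed. According to the methods, animals of 1 founder line, heterozygous for the transgene, were set against wild type littermates. All embryos were of mixed background, and the methods name FVB/N oocytes for the injection of the transgene. By their descriptions, 6 samples (dnBrg1 replicates 1 and 2 and all of wild type) were polysome-bound RNA and dnBrg1 replicates 3 and 4 were total RNA, although another label field gives total RNA throughout.

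Collagens are triple helices of alpha chains, and each chain is the product of its own gene. Fibrillar chains build the cables of connective tissue, FACIT collagens decorate the surface of such fibrils, and basement membrane collagens form sheets such as the capsule that lens cells lay down around themselves. Small leucine-rich proteoglycans bind fibrils and set their width, and they are abundant in the mesenchyme that gives rise to cornea and sclera. Lens tissue itself makes basement membrane chains, whereas chains of collagen I and III, decorin and lumican are best known from fibroblasts around the eye.

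The values are intensities on the log2 scale, a fold change is dnBrg1 over wild type, and a value after ± is the standard error of the difference unless SD is named. A probe set was called when its p-value from limma, adjusted by Benjamini-Hochberg over all 22626 probe sets, was under 0.05. Array medians lay between 196.9 and 209.0 intensity units, and arrays of 1 genotype correlated at 0.9905 to 0.9936 in dnBrg1 and at 0.9815 to 0.991 in wild type. The number of arrays limits the precision, and the p-values measure the spread between these samples. Of the 2 probe sets for Smarca4, which encodes Brg1, the dimmer was higher in dnBrg1 lenses by 2.35 ± 0.21 (limma adjusted p = 4.8e-05), and the brighter differed by -0.24 ± 0.11 without passing (adjusted p = 0.12).

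Before the members are described, a difference between the 2 sets of arrays has to be given. The array carries control probe sets for the 3′ and the 5′ part of the β-actin and Gapdh transcripts. Averaged over both, the 3′ minus 5′ difference was 0.62 ± 0.03 in dnBrg1 lenses and 2.05 ± 0.52 in wild type lenses (log2, SD, n = 4 each; two-sided exact permutation p = 0.0286, the smallest that 70 assignments allow). The genotypes did not overlap in this measure, so its part in any difference reported here cannot be told apart from genotype. With it as a covariate (the control covariate), 6.37% of all probe sets were called, where 40.8% were called without it, and the median standard error was 0.295 in place of 0.145. The measure spanned 0.59 to 0.65 in dnBrg1 and 1.43 to 2.66 in wild type lenses. Differences with the control covariate thus rest mainly on the trend among wild type samples, carried beyond their range, and their signs and calls are uncertain.

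Of the 86 member probe sets, 27 were called (31.4%), which is below the 40.8% of all probe sets. Higher in dnBrg1 were 9 members (10.5%, against 19.8% of all probe sets), and lower were 18 (20.9%, against 21.0% of all). The dnBrg1 and wild type samples did not overlap in 20 of the 86 (23.3%, against 40.1% of all). Each gene was then read by its brightest probe set, the one whose mean over all 8 samples was highest. On this count 16 of 50 member genes were called (32.0%, against 40.7% of all genes), with 4 higher (8.0%, against 17.5%) and 12 lower (24.0%, against 23.3%). The median log2 fold change of the members was -0.2, and that of all genes -0.11. Under the control covariate 3 member probe sets were called, and of the 27 calls without it only that of Col2a1 remained. In RNA of a whole lens, fewer cells of a type and less RNA per cell cannot be told apart.

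**Figure D1:**
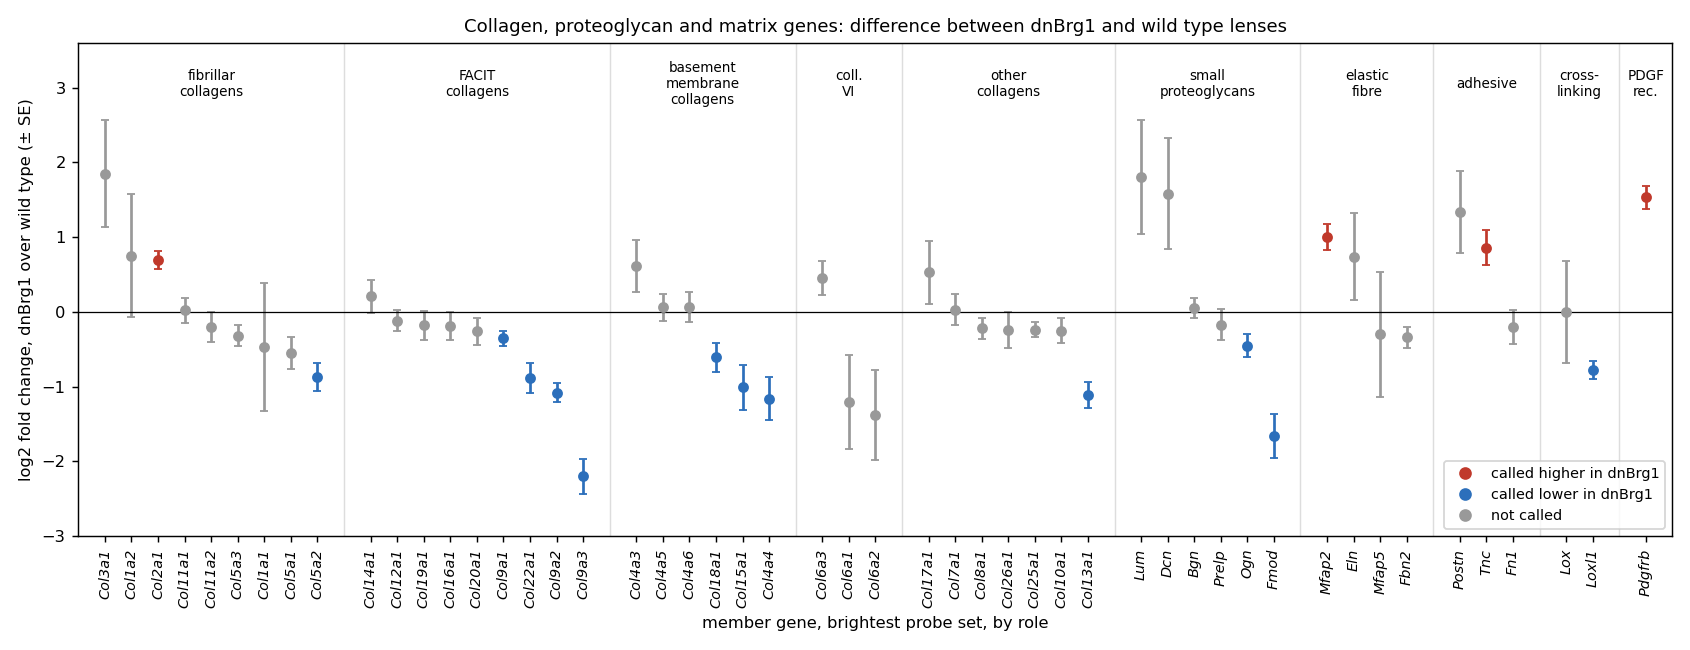
Log2 fold change of dnBrg1 over wild type lenses (vertical axis, bars show the standard error) for the brightest probe set of each of the 50 member genes (horizontal axis), grouped by role and colored by call. Lower calls (blue) include 4 of 9 FACIT and 3 of 6 basement membrane genes, higher calls (red) are 4 genes in 4 roles, and the widest bars belong to Col1a1, Col1a2, Col3a1, Lum, Dcn, Lox and Mfap5.

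The 3 genes by which mesenchyme was to be recognised did not move together. Pdgfrb, the receptor for platelet-derived growth factor B on pericytes and mesenchymal cells, measured 9.13, 9.21, 9.36 and 9.03 in dnBrg1 lenses, against 7.41, 7.54, 8.03 and 7.65 in wild type lenses. All dnBrg1 samples lay above all wild type samples, and the difference was 1.53 ± 0.15, or 2.88-fold (limma adjusted p = 6.4e-05). Its dimmer probe set gave 1.54 ± 0.17 (adjusted p = 0.00014). This was the largest increase among the brightest probe sets of called members, and it kept its call with each sample left out. Adding the control covariate made it 1.06 (adjusted p = 0.086).

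Col5a2, a chain of collagen V that sits inside collagen I fibrils and limits their thickness, went the other way. It measured 8.79, 8.41, 8.69 and 9.22 in dnBrg1 lenses, against 9.72, 9.77, 9.28 and 9.82 in wild type lenses. The groups did not overlap and the difference was -0.87 ± 0.19 (adjusted p = 0.0051), but the other Col5a2 probe set, with overlapping groups, gave -0.43 ± 0.37 (adjusted p = 0.38). Ogn, the small proteoglycan osteoglycin or mimecan, gave opposite calls by its 2 probe sets and is described with the proteoglycans. Of 19 measured markers of periocular mesenchyme and fibroblasts outside the members, 1 was called (5.26%, against 40.7% of all genes). It was the surface protein gene Thy1, at -1.56 ± 0.40 (adjusted p = 0.013). Thy1 was dim, at a mean of 4.48, and with the control covariate it had the opposite sign at 0.62 and was not called. The summed intensity of these 19 markers was 8071 to 9866 in dnBrg1 lenses and 9265 to 10720 in wild type lenses, and these ranges overlap. This sum weighs the bright markers most, and 13 of the 19 lay below the median of all probe sets. Pdgfra, the brightest at a mean of 11.46, is also a marker of lens epithelium, so the sum is not one of mesenchyme alone. The label of a mesenchyme program is therefore not borne out by a shared change of its markers, and the genes are called here by what they encode.

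Among the fibrillar collagens, 1 of 9 genes rose and 1 fell (22.2% called, against 40.7% of all genes). Col2a1, the chain of collagen II known from cartilage, vitreous and early eye tissue, measured 9.73, 10, 9.90 and 9.77 in dnBrg1 lenses, against 9.01, 9.37, 8.97 and 9.24 in wild type lenses. No wild type sample reached the lowest dnBrg1 sample, with a difference of 0.70 ± 0.12 (adjusted p = 0.0017). It is the member whose call held under all 18 alternatives, and with the control covariate it was 1.21 (adjusted p = 0.026). Of 8 measured markers of cartilage outside the members, none was called higher and 2 were lower (25.0% called, against 40.7% of all genes). These were the chondrogenic factor gene Sox9 (-1.35 ± 0.24) and the cartilage proteoglycan gene Acan (-0.55 ± 0.11). Sox9 had a mean of 9.26. The other 7 lay below the median of all probe sets, Acan at 3.93, so they say little about cartilage. Sox9 gave most of the summed intensity of these markers, and the other 7 summed to 110 to 133 in dnBrg1 lenses and 135 to 149 in wild type lenses.

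Apart from Col5a2, which was called lower, the collagen V and XI chains that join the same fibrils were mostly below wild type without passing the test. Col5a1 differed by -0.55 ± 0.21 on its brightest probe set (adjusted p = 0.058), and a dimmer probe set of the gene gave 0.44 ± 0.17. Col5a3 differed by -0.32 ± 0.14 and Col11a2 by -0.20 ± 0.20, and Col11a1 by 0.02 ± 0.17. The remaining fibrillar genes, Col1a1, Col1a2 and Col3a1, varied too much among the dnBrg1 samples to be read as a difference between genotypes and are taken up below.

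The FACIT collagens, which carry interrupted helices and attach to fibrils, had 4 genes lower and none higher among 9 (44.4% called, against 40.7% of all genes). All 3 collagen IX genes were among the 4. Col9a3 gave the largest decrease of all members. It measured 6.97, 6.70, 6.33 and 7.28 in dnBrg1 lenses, against 8.92, 9.06, 8.60 and 9.48 in wild type lenses. The groups were clearly apart, and the difference was -2.20 ± 0.23, or 4.58-fold lower (adjusted p = 0.00011). A second probe set gave -0.95 ± 0.30 with overlapping groups (adjusted p = 0.031), a call that was lost without dnBrg1 replicate 1, 2 or 3 or wild type replicate 4, and the remaining one, with group means of 2.61 in dnBrg1 and 2.66 in wild type, differed by -0.05 ± 0.11.

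Col9a2, whose chain pairs with those of Col9a1 and Col9a3 in the same molecule, measured 6.90, 7.29, 7.24 and 7.01 in dnBrg1 lenses, against 8.11, 8.41, 7.99 and 8.25 in wild type lenses. No dnBrg1 sample reached the lowest wild type sample, and the difference was -1.08 ± 0.13 (adjusted p = 0.00023). Col22a1, known from tissue junctions such as those of muscle and tendon, differed by -0.89 ± 0.20 (adjusted p = 0.0068). Under the control covariate the differences of Col9a3, Col9a2 and Col22a1 kept their sign at -1.54, -0.60 and -0.38, and none passed. The other 5 FACIT genes, Col12a1, Col14a1, Col16a1, Col19a1 and Col20a1, were not called, with brightest probe sets between -0.26 and 0.21.

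Col9a1 read differently by probe set. Its brightest probe set measured 12.32, 12.31, 12.48 and 12.29 in dnBrg1 lenses, against 12.76, 12.71, 12.51 and 12.80 in wild type lenses. Here the dnBrg1 samples were the lower ones by a narrow margin, with a difference of -0.35 ± 0.10 (adjusted p = 0.024) that lost its call without dnBrg1 replicate 1, 2 or 4 or wild type replicate 1 or 4. Its second probe set measured 9.35, 9.49, 9.42 and 9.20 in dnBrg1 lenses, against 8.62, 8.04, 8.43 and 8.51 in wild type lenses. On this probe set all dnBrg1 samples were the higher ones, by 0.97 ± 0.14 (adjusted p = 0.00057), and the call held with each sample left out.

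RefSeq annotates 2 transcription starts for Col9a1 on the forward strand of chromosome 1, 17593 bases apart in GRCm38.p6. The 150 bases before each are shown because transcripts from these starts differ at their 5′ end, and the annotation used here does not say which transcript each probe set reads. The capitals mark the letters CCAAT, and the first window holds none of the motifs searched.

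Col9a1 upstream start (chr1:24177460-24177609): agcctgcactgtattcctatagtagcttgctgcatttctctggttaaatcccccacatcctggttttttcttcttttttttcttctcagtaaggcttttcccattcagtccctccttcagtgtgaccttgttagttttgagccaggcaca
Col9a1 downstream start (chr1:24195053-24195202): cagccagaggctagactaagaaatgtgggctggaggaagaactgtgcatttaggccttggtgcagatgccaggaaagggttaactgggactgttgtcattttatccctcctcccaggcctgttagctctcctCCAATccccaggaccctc

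In the downstream window the match begins at position -18 from the start. A match is a description of letters and no evidence of a bound factor.

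Of 6 genes for basement membrane collagens, 3 were lower and none higher on the brightest probe set (50.0% called, against 40.7% of all genes), and the calls of Col15a1 and Col18a1 depended on single samples. Col4a4, a chain of the collagen IV network of mature basement membranes, was dim. It measured 3.72, 3.80, 3.06 and 4.09 in dnBrg1 lenses, against 5.20, 5.32, 4.62 and 4.19 in wild type lenses. The groups were adjacent without overlap, and the difference was -1.16 ± 0.29 (adjusted p = 0.0098). Its partner chain Col4a3 differed by 0.61 ± 0.35 and was not called (adjusted p = 0.19).

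Col15a1, a collagen at the outer face of vascular and muscle basement membranes, measured 8.50, 8.44, 9.12 and 8.95 in dnBrg1 lenses, against 10.06, 10.25, 8.86 and 9.89 in wild type lenses. Wild type replicate 3 lay among the dnBrg1 samples. The difference of -1.01 ± 0.30 (adjusted p = 0.022) lost its call without dnBrg1 replicate 1 or 2 or wild type replicate 1, 2 or 4, and had the opposite sign with the control covariate (0.40, adjusted p = 0.70). Col18a1, whose chain carries the endostatin fragment and belongs to the lens capsule, differed by -0.61 ± 0.19 with overlapping groups (adjusted p = 0.027). This call was lost without dnBrg1 replicate 1, 2 or 4 or wild type replicate 1 or 2, and the difference with the control covariate was 0.12. The second Col18a1 probe set, without overlap, gave -1.07 ± 0.18 (adjusted p = 0.0012) and -0.20 with the control covariate.

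Col4a5 and Col4a6 encode the chains that together form the collagen IV network typical of the lens capsule, and both had bright probe sets. Col4a5 measured 12.01, 12.01, 11.62 and 11.66 in dnBrg1 lenses, against 11.71, 11.33, 12.02 and 11.99 in wild type lenses. The samples of both genotypes were interleaved, with a difference of 0.06 ± 0.18 (adjusted p = 0.80), and its second probe set gave 0.10 ± 0.18. The brightest Col4a6 probe set likewise gave 0.06 ± 0.20 (adjusted p = 0.83).

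The second Col4a6 probe set did not follow. It measured 10.65, 10.87, 10.47 and 10.63 in dnBrg1 lenses, against 8.97, 8.58, 9.47 and 8.67 in wild type lenses. The dnBrg1 samples were all higher, by 1.73 ± 0.19 or 3.33-fold (adjusted p = 0.00014), the largest increase among the called member probe sets. With the control covariate it was 0.71 and not called, while the brightest Col4a6 probe set was then called at 1.21 (adjusted p = 0.029). Which Col4a6 value stands for the gene was therefore not settled by these data.

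The network-forming, transmembrane and other collagens held 1 call among 7 genes (14.3%, against 40.7% of all genes). Col13a1, a transmembrane collagen of cell adhesion sites, measured 7.15, 7.44, 7.38 and 7.54 in dnBrg1 lenses, against 8.77, 8.72, 8.10 and 8.38 in wild type lenses. The wild type samples were all the higher ones, with a difference of -1.11 ± 0.17 (adjusted p = 0.00064) that kept its call with each sample left out and was -0.55 with the control covariate (adjusted p = 0.39). Col7a1, Col8a1, Col10a1, Col17a1, Col25a1 and Col26a1 were not called and lay between -0.25 and 0.53. Col25a1 had no overlap between the genotypes at -0.24 ± 0.10 (adjusted p = 0.085).

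Of 6 small leucine-rich proteoglycan genes 2 were lower, Fmod and Ogn (33.3% called, against 40.7% of all genes). Each of these 2 also had a probe set called higher. Fmod, or fibromodulin, which binds collagen I fibrils, had 6 probe sets. The brightest measured 7.31, 7.64, 7.43 and 8.51 in dnBrg1 lenses, against 9.68, 9.72, 8.76 and 9.37 in wild type lenses. The dnBrg1 samples were all lower, by 1.66 ± 0.29 on the log2 scale or 3.16-fold (adjusted p = 0.0017), with replicate 4 the nearest to wild type. Of the other 5 probe sets 3 were lower, at -0.92 to -1.01, 1 at -0.78 was not called, and the dimmest was higher at 0.49 ± 0.17 (adjusted p = 0.043). Of the 3 lower ones, those at -0.92 and -1.01 lost their calls without dnBrg1 replicate 1, 2 or 3 or wild type replicate 1, 2 or 4, and the higher one without dnBrg1 replicate 1, 2 or 4 or wild type replicate 1, 3 or 4. By their identifiers 5 of the 6, among them the brightest and all that were called lower, carry probes that may also match other transcripts, and the probe set called higher is the one without that mark. The lower Fmod readings are therefore uncertain.

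Ogn was among the brightest members in both genotypes, with Col9a1 and Col4a5, although brightness does not order transcripts of different genes. Its brightest probe set measured 12.20, 12.04, 11.81 and 12.07 in dnBrg1 lenses, against 12.45, 12.62, 12.14 and 12.73 in wild type lenses. The groups touched, since dnBrg1 replicate 1 lay above wild type replicate 3, and the difference was -0.45 ± 0.15 (adjusted p = 0.035). That call was lost without dnBrg1 replicate 2, 3 or 4 or wild type replicate 1, 2 or 4, and turned to 0.16 with the control covariate. The second Ogn probe set measured 10.80, 10.60, 9.89 and 10.49 in dnBrg1 lenses, against 9.10, 8.97, 9.64 and 9.55 in wild type lenses. Here the dnBrg1 samples were all higher, by 1.13 ± 0.22 (adjusted p = 0.0030), and 0.58 with the control covariate (adjusted p = 0.55).

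Bgn, or biglycan, and Prelp differed by 0.05 ± 0.13 and -0.17 ± 0.21 on their brightest probe sets and were not called. Once the control covariate was added the second Prelp probe set was called at 1.68 (adjusted p = 0.047), where it was -0.02 ± 0.29 without it. The Prelp values are low, between 3.68 and 5.38 over both probe sets and all samples. Dcn and Lum, decorin and lumican, belong with the variable genes below.

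Probe sets of the same gene were compared for the 27 member genes with several, taking the 2 brightest of each. Both were called in 1 direction for 5 genes (Pdgfrb, Col9a3, Fmod, Col22a1 and Col18a1) and in opposite directions for 2 (Ogn and Col9a1), while 1 alone was called for 2 genes (Col4a6 and Col5a2) and neither for 18. The second call was lost for Col22a1 without dnBrg1 replicate 1, 2 or 3 or wild type replicate 3 or 4. Among all 4956 genes with several probe sets the calls agreed in direction for 797 (16.1%), were opposite for 389 (7.85%), were split between called and not called for 2069 (41.7%) and absent for 1701 (34.3%). In Ogn, Col9a1 and Col4a6 the brightest probe set was level or lower and the second was higher in dnBrg1 lenses, the genotype in which the 5′ control probe sets read nearer to the 3′ ones. Where on the transcript each probe set lies was not used here, and the part of the control difference in these opposite calls was not tested.

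**Figure D2:**
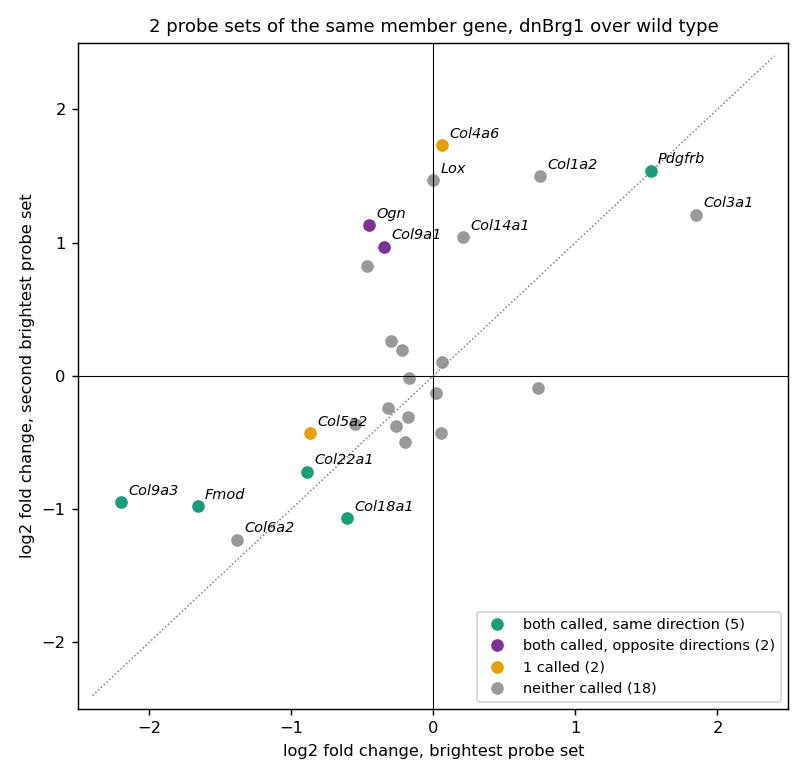
Log2 fold change of dnBrg1 over wild type for the brightest (horizontal axis) and the second brightest probe set (vertical axis) of the 27 member genes with several, colored by how the 2 were called; the dotted line marks equal values. Pdgfrb lies on the line, Ogn and Col9a1 lie at upper left with opposite calls, and Col4a6 reads 0.06 by one probe set and 1.73 by the other.

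Among 4 elastic fibre genes, Mfap2 was higher and none was lower (25.0% called, against 40.7% of all genes). Mfap2 encodes a microfibril-associated glycoprotein that binds fibrillin, and microfibrils also form the fibers that hold the lens. It measured 11.46, 11.28, 11.44 and 11.76 in dnBrg1 lenses, against 10.65, 10.17, 10.81 and 10.30 in wild type lenses. All dnBrg1 samples were above all wild type samples, by 1.0 ± 0.17 or 2.0-fold (adjusted p = 0.0012), and by 0.20 with the control covariate (adjusted p = 0.71). Fbn2, the fibrillin of embryonic tissue, differed by -0.34 ± 0.14 and was not called (adjusted p = 0.083).

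Tnc was the called gene among 3 adhesive glycoproteins (33.3%, against 40.7% of all genes). Tnc, or tenascin C, is a matricellular protein of developing and healing tissue, and its probe set was dim. It measured 4.54, 4.27, 4.51 and 5.25 in dnBrg1 lenses, against 3.48, 3.99, 3.5 and 4.14 in wild type lenses. The groups were adjacent without overlap, with dnBrg1 replicate 4 the highest, and the difference was 0.86 ± 0.23 (adjusted p = 0.015). Without dnBrg1 replicates 1 and 4 it was 0.61 (adjusted p = 0.096). Fn1, or fibronectin, differed by -0.20 ± 0.23 and was not called.

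Loxl1, an enzyme that crosslinks elastin, was lower and Lox was not called. Loxl1 measured 9.76, 9.52, 9.38 and 9.75 in dnBrg1 lenses, against 10.40, 10.44, 10.28 and 10.43 in wild type lenses. The wild type samples lay close together and above every dnBrg1 sample, with a difference of -0.78 ± 0.12 (adjusted p = 0.00063), and -0.59 with the control covariate (adjusted p = 0.22).

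**Figure D3:**
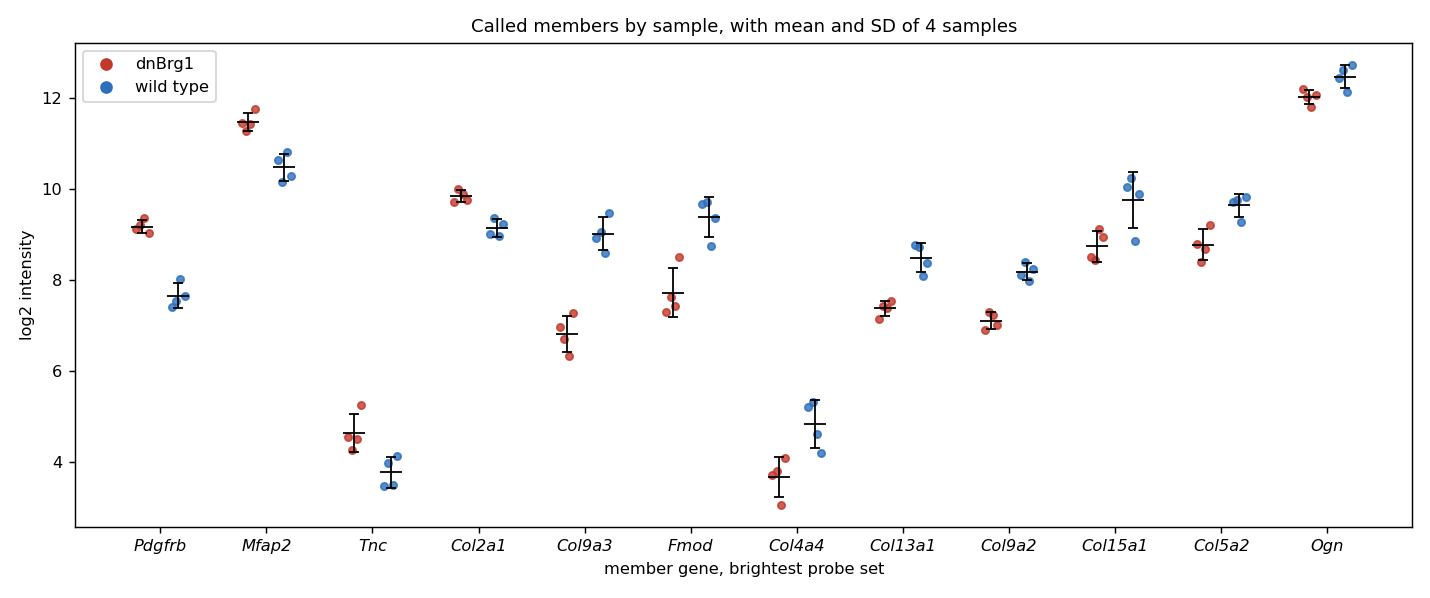
Log2 intensity (vertical axis) of 12 called members on their brightest probe set (horizontal axis) in each dnBrg1 (red) and wild type (blue) sample, with the mean and SD of the 4 samples of each genotype. Pdgfrb, Mfap2, Tnc and Col2a1 are higher in every dnBrg1 sample, Col9a3 is lower in all of them by the widest gap, and the groups touch for Col15a1 and Ogn.

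The fibrillar chains of collagen I and III, 2 collagen VI chains, Dcn, Lum, Postn, Lox, Mfap5 and Eln showed another pattern, which was singled out after the values were seen. In these 11 of the 50 member genes (22.0%) the SD among the 4 dnBrg1 samples was over 1 on the log2 scale, against 128 of all 12393 genes (1.03%). Among wild type samples no member gene and 41 of all genes (0.331%) had an SD that large. In 10 of the 11, and in 43 of the 128, dnBrg1 replicates 1 and 4 both lay above replicates 2 and 3. For Mfap5, 1 of the 10, replicate 1 was only 0.46 above replicate 2, and its second probe set lacked this order. None of the 11 was called. Outside the members, an SD over 1 among dnBrg1 samples was also found in related lists. These were 3 of 22 other small leucine-rich and matricellular genes, 2 of 19 mesenchyme and fibroblast markers, and 1 of 14 matrix proteases and inhibitors.

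Col1a1, the main chain of collagen I, measured 12.09, 8.22, 8.83 and 11.83 in dnBrg1 lenses, against 10.89, 10.13, 10.12 and 11.73 in wild type lenses. The dnBrg1 samples thus lay on both sides of wild type, with replicates 1 and 4 at the top and replicates 2 and 3 at the bottom, and the difference was -0.47 ± 0.86 (adjusted p = 0.69). Col1a2, the partner chain, measured 10.65, 7.37, 7.92 and 11.05 in dnBrg1 lenses, against 8.53, 8.69, 7.45 and 9.32 in wild type lenses, a difference of 0.75 ± 0.82. The order of the dnBrg1 samples was nearly that of Col1a1. Col3a1, which forms mixed fibrils with collagen I in soft tissue, measured 11.56, 7.85, 9.50 and 11.31 in dnBrg1 lenses, against 8.49, 7.78, 7.84 and 8.73 in wild type lenses, a difference of 1.85 ± 0.72 (adjusted p = 0.068).

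Dcn, whose proteoglycan coats collagen I fibrils, measured 8.63, 5.65, 6.03 and 9.05 in dnBrg1 lenses, against 6.41, 5.53, 5.15 and 5.96 in wild type lenses. Lum, needed for the clear cornea, measured 7.54, 3.57, 5.19 and 6.72 in dnBrg1 lenses, against 3.91, 3.38, 3.54 and 4.99 in wild type lenses. In both genes replicates 1 and 4 stood above all wild type samples while replicate 2 lay within their range. Postn, or periostin, was highest in dnBrg1 replicate 4 at 8.89, with 7.03, 6.01 and 6.47 in replicates 1 to 3, against 5.39, 5.72, 5.42 and 6.49 in wild type lenses.

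The collagen VI chains Col6a1 and Col6a2, of beaded filaments, lay below wild type in dnBrg1 replicates 2 and 3 alone. Col6a1 measured 8.99, 6.35, 6.63 and 8.72 in dnBrg1 lenses, against 8.42, 9.36, 8.10 and 9.62 in wild type lenses. Col6a2 measured 8.40, 6.0, 6.41 and 8.18 in dnBrg1 lenses, against 8.51, 8.82, 7.58 and 9.61 in wild type lenses. Col6a3, the other chain, had no such split, with dnBrg1 values of 9.75 to 10.39 and wild type values of 8.91 to 9.95, and was not called (0.45 ± 0.23, adjusted p = 0.15).

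Lox, Mfap5 and Eln were led by dnBrg1 replicate 4. Lox, which crosslinks collagen and elastin, measured 6.81, 4.90, 6.14 and 8.61 in dnBrg1 lenses, against 7.20, 5.92, 6.16 and 7.16 in wild type lenses. Mfap5, a second microfibril glycoprotein, measured 3.92, 3.46, 3.0 and 7.35 in dnBrg1 lenses, against 4.98, 3.89, 5.40 and 4.68 in wild type lenses. Eln, or elastin, stood at 8.96 in replicate 4 and at 6.32 to 6.41 in the other dnBrg1 samples, against 5.50 to 6.86 in wild type lenses. On these brightest probe sets replicate 4 was above every wild type sample in the 3 genes, and the other dnBrg1 samples were not. The second Lox probe set measured 5.98, 4.77, 4.53 and 7.33 in dnBrg1 lenses, against 4.71, 3.83, 4.25 and 3.92 in wild type lenses. There replicates 1, 2 and 4 were above all wild type samples, and the difference of 1.47 ± 0.54 was not called (adjusted p = 0.056).

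**Figure D4:**
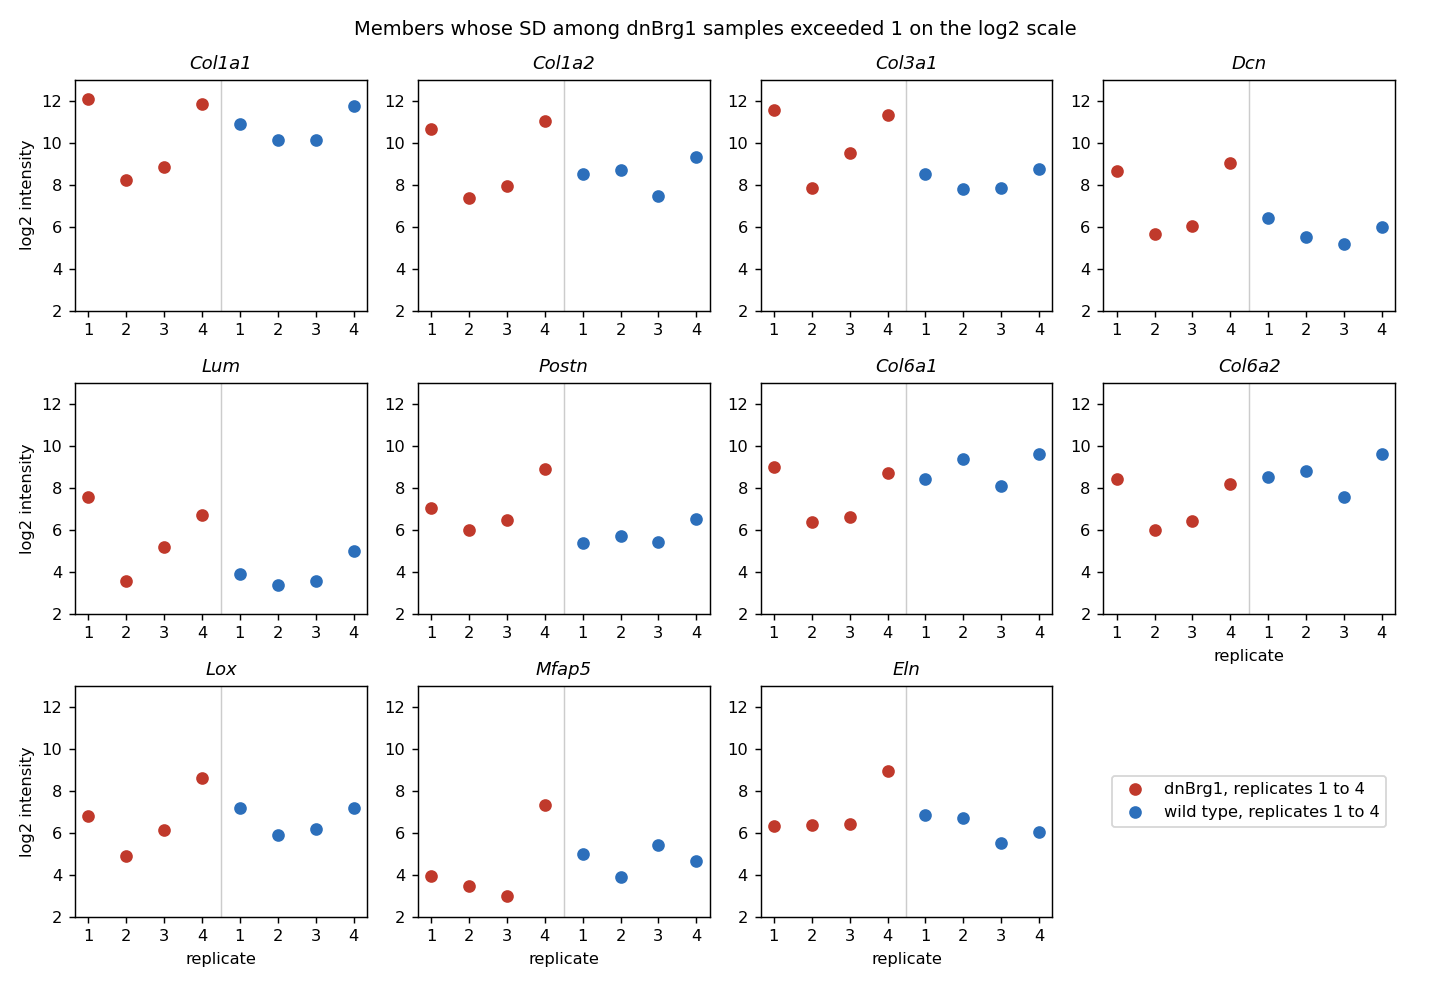
Log2 intensity (vertical axis) in each dnBrg1 (red) and wild type (blue) replicate (horizontal axis) of the 11 member genes whose SD among the dnBrg1 samples was over 1. In 10 genes dnBrg1 replicates 1 and 4 lie above replicates 2 and 3, though in Mfap5 replicate 1 does so by only 0.46. In Eln replicate 4 alone stands out, at 8.96.

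Replicates 1 and 4, the high samples for these genes, do not share a described RNA fraction, since replicates 1 and 2 were described as polysome bound and replicates 3 and 4 as total RNA. Summed over the 9 fibrillar genes the intensity was 11242, 2901, 3606 and 10804 in dnBrg1 replicates 1 to 4, against 5147, 5009, 3536 and 7168 in wild type lenses. Leaving out dnBrg1 replicate 2 made Col3a1, Dcn, Lum and Postn called higher (limma adjusted p = 0.0044, 0.038, 0.0098 and 0.039). Of the 50 member genes 8 were then higher and 8 lower. Of all 22626 probe sets 3998 were higher and 4084 lower in that fit, also a near even split. Leaving out dnBrg1 replicates 1 and 4 together, an alternative chosen after the data were seen, made Col1a1, Col6a1, Col6a2 and Mfap5 called lower (-2.19, -2.39, -2.43 and -1.51). That fit kept only the low dnBrg1 samples of these genes, so its lower calls followed from that choice. Whether these genes passed, and on which side, thus depended on the samples that entered the fit.

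Markers of tissues next to the lens also differed among the dnBrg1 samples. The 13 skeletal muscle markers summed to 2019, 4521, 1379 and 8619 in dnBrg1 replicates 1 to 4, against 1140 to 1767 in wild type lenses, and 9 of them had an SD over 1 among the dnBrg1 samples. Replicates 2 and 4 were the high ones. Mylpf (1.95 ± 0.56) and Tnnt1 (1.29 ± 0.42), both of the contractile apparatus, were called higher (15.4% of the markers called, against 40.7% of all genes). Neither call held without dnBrg1 replicate 2, and that of Tnnt1 was also lost without wild type replicate 1, 2 or 4. The 15 markers of epidermis and keratinocytes, a list added after the values were seen, summed to 30420 in dnBrg1 replicate 1 and to 2489 to 2754 in replicates 2 to 4, against 2771 to 3899 in wild type lenses. All 15 had an SD over 1 and none was called. The samples with high collagen I and III were thus the one with high epidermal markers and the one with the highest muscle markers, and the part of either in the collagen values was not tested.

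Further lists were read beside the called members. Of 12 pericyte and smooth muscle markers, which belong with Pdgfrb, 3 were higher (Mcam, Kcnj8 and Tagln at 0.88, 0.88 and 0.80) and 4 lower (Cspg4, Abcc9, Rgs5 and Notch3 at -0.90, -0.73, -0.53 and -0.53). The call of Kcnj8 was lost without dnBrg1 replicate 2, 3 or 4 or wild type replicate 4, and that of Abcc9 without dnBrg1 replicate 1, 3 or 4 or wild type replicate 1, 2 or 4. The summed intensity of the 12 markers was 6424 to 7989 in dnBrg1 lenses and 8630 to 10560 in wild type lenses. Rgs5 alone gave 3483 to 4467 of it in dnBrg1 and 4483 to 6895 in wild type lenses, and the other 11 summed to 2941 to 3522 in dnBrg1 and 3157 to 4472 in wild type lenses, which overlap. Of 13 endothelial markers 6 were higher and 3 lower, with sums of 6163 to 7129 in dnBrg1 and 6349 to 6484 in wild type lenses. Of 13 macrophage markers 3 were higher and 5 lower (61.5% called, against 40.7% of all genes). The calls of Csf1r, C1qb and F13a1, all lower, held with each sample left out, and those of Fcgr3, Cx3cr1, Lyz2, Tyrobp and Ptprc did not. Fcgr3 was lost without wild type replicate 1 or 4, Cx3cr1 without dnBrg1 replicate 1 or 3 or wild type replicate 4, and Tyrobp without dnBrg1 replicate 2 or 4 or wild type replicate 4. Ptprc was lost without dnBrg1 replicate 1, 2 or 4 or wild type replicate 1, 2 or 4, and Lyz2 without dnBrg1 replicate 3 or 4 or any 1 wild type sample. The macrophage sums of 4144 to 7305 in dnBrg1 and 10659 to 12921 in wild type lenses did not overlap, but without Csf1r and C1qb they were 2790 to 4584 in dnBrg1 and 3596 to 3997 in wild type lenses and did. Of 10 neural retina markers 1 was higher and 8 lower, of which Isl1 lost its call without dnBrg1 replicate 2, 3 or 4 or wild type replicate 4, with sums of 14932 to 18949 in dnBrg1 and 21583 to 26587 in wild type lenses. Pigment cell markers were lower for 2 of 7, of which Mitf lost its call without dnBrg1 replicate 1, 3 or 4 or wild type replicate 1, 2 or 4, with sums of 4916 to 7207 in dnBrg1 and 6119 to 9415 in wild type lenses. The part of these tissues in the lower collagen genes was not tested.

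**Figure D5:**
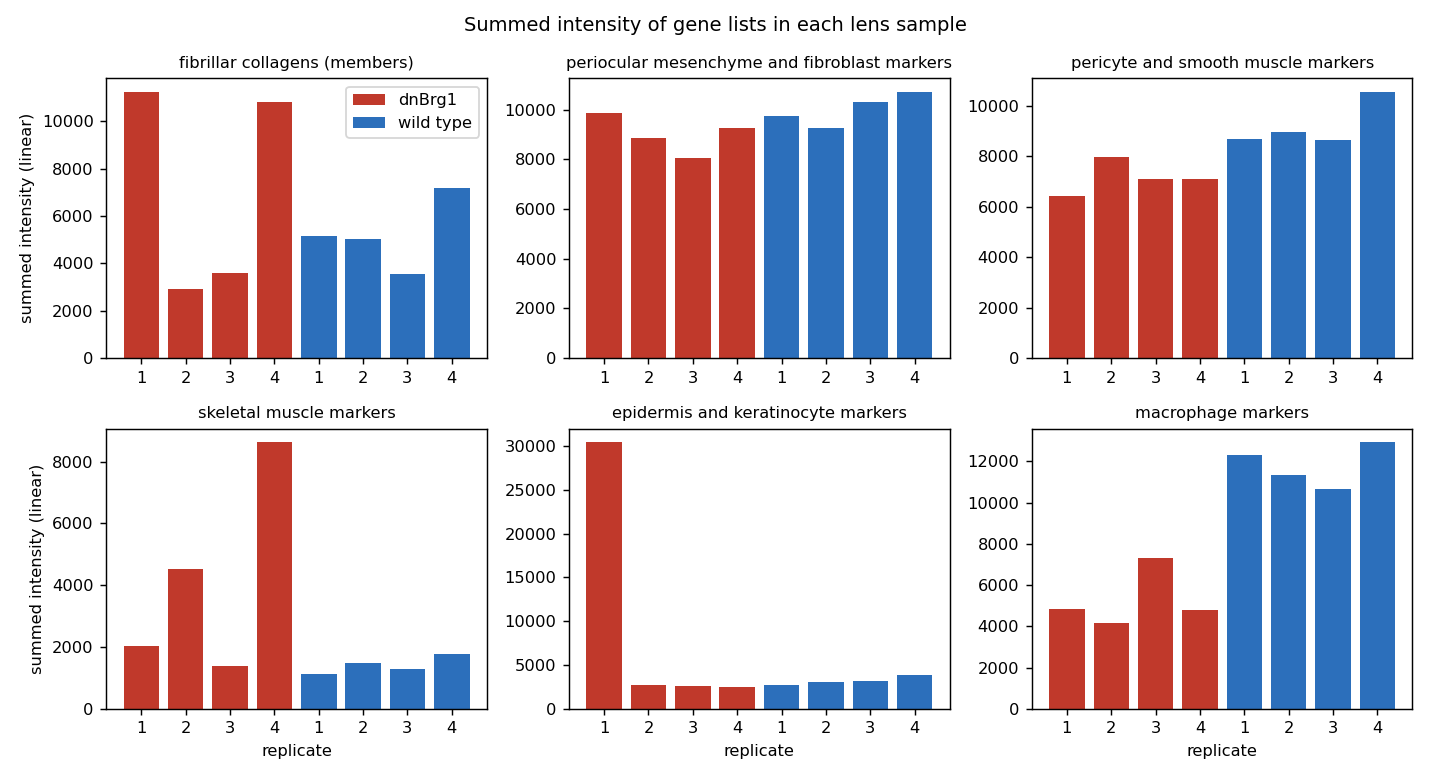
Summed linear intensity (vertical axis) of the fibrillar collagen members and of 5 marker lists in dnBrg1 (red) and wild type (blue) replicates (horizontal axis); each panel has its own scale, starting at 0. dnBrg1 replicates 1 and 4 lead the fibrillar collagens, replicate 4 the muscle markers and replicate 1 the epidermal markers at 30420, while the macrophage sum, to which Csf1r and C1qb gave most in wild type, is lower in every dnBrg1 sample.

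The promoters of Col1a2 and Col3a1 are shown because both genes followed the split among dnBrg1 samples. Each is the 150 bases before the RefSeq start in GRCm38.p6, forward strand, with the matched letters in capitals.

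Col1a2 (chr6:4505468-4505617): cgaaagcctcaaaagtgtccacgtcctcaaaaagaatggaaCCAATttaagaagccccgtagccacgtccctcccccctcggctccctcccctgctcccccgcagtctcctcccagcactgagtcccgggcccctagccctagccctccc
Col3a1 (chr1:45311388-45311537): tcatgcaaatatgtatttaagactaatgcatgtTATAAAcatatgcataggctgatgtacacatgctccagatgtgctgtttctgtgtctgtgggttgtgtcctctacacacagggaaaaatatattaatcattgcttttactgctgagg

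The Col1a2 window holds CCAAT at position -109 from the start, and the Col3a1 window holds TATAAA at -117, so the pair shares neither. RefSeq starts were found for 32 of the 50 member genes, with 38 starts in all. On either strand of these windows CCAAT stood before 8 starts (21.1%, against 24.5% of 32851 mouse starts), TATAAA before 6 (15.8%, against 7.57%) and GGGCGG, the GC box, before 14 (36.8%, against 28.6%). No 2 of these motifs share letters in the windows shown, and the counts are a description.

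Genes that fold, cut and crosslink collagen were read as a list of their own. Of 21 measured genes of collagen synthesis and processing, 6 were higher and 6 lower (57.1%, against 40.7% of all genes). P4ha1 and P4ha2, which hydroxylate prolines in the chains, were higher by 1.42 ± 0.24 and 1.01 ± 0.12. Bmp1 and Pcolce, the protease that removes the C-propeptide of fibrillar chains and its enhancer, were lower at -1.41 ± 0.10 (adjusted p = 1.9e-05) and -1.35 ± 0.12 (adjusted p = 4.4e-05). With the control covariate Bmp1 was still lower, at -1.63 (adjusted p = 0.013), while P4ha1 was 0.01. P4ha2 was then 0.98 (adjusted p = 0.078) and Pcolce -0.91 (adjusted p = 0.055), of the same sign and not called.

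Of 14 matrix proteases and inhibitors, 2 were higher and 3 lower (35.7% called, against 40.7% of all genes). Fap, a protease of activated fibroblasts, was higher at 1.64 ± 0.52 and Timp2, a metalloproteinase inhibitor, at 0.81 ± 0.12, while Mmp2, a gelatinase, was lower at -1.34 ± 0.30 and Timp1, another inhibitor, at -0.58 ± 0.13. Of 22 other small leucine-rich and matricellular genes 2 were higher and 4 lower (27.3% called, against 40.7% of all genes). Optc, a proteoglycan of the vitreous, was higher at 1.56 ± 0.22, and Ltbp3, which holds latent TGFβ in the matrix, was lower at -1.79 ± 0.15. Sparcl1 (-0.87 ± 0.20) and Efemp1 (-0.66 ± 0.22), both secreted matrix proteins, were also lower. With the control covariate none of these 8 kept its call, and Mmp2 and Efemp1 had the opposite sign, at 0.34 and 0.37. The call of Fap was lost without dnBrg1 replicate 1 or 4 or any 1 wild type sample, and that of Efemp1 without dnBrg1 replicate 2, 3 or 4 or wild type replicate 2 or 4.

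The calls were also split by brightness. Of the 25 member genes at or above the median of all probe sets (7.69) 3 were higher and 9 lower (48.0% called, against 52.6% of all genes at that brightness), and of the 25 below it 1 was higher and 3 lower (16%, against 25.4%). The same split by brightness was thus present over all genes. Averaging all probe sets of a gene gave 6 higher and 10 lower of 50, where the brightest probe set gave 4 higher and 12 lower. The share of all genes called on such averages was not taken. Counted singly, 9 of the 86 member probe sets were higher and 18 lower.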

How the data were processed

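RNA of whole E15.5 lenses, in 4 dnBrg1 and 4 wild type samples, was read on Affymetrix mouse expression arrays, and groups were taken from the genotype in the labels. The authors ran robust multichip average (RMA, version not given in the sources used here) on the scans and deposited linear intensities, which ranged from 3.64 to 28468.2. RMA forces the arrays to 1 distribution, which takes out any shift that most transcripts share. Because expression arrays give no read depth, precision rests on the number of arrays.

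The intensities were taken to log2. Of 22690 probe sets 64 array controls were set aside. Of the 22626 left, 20380 name 1 gene in the platform annotation, 691 several and 1555 none. The difference, dnBrg1 minus wild type, was fitted by lmFit and eBayes of limma 3.58.1 (R 4.3.3) with no covariate and no filter. A call needed an adjusted p (Benjamini-Hochberg) under 0.05. The fit was tested on simulated data. Control differences were compared by exact permutation in Python 3.11.15 with scipy 1.17.1. The methods name Student's t-test, which was run as an alternative and is called the methods' t-test, and significance analysis of microarrays, which was not run.

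The members and all gene lists were chosen with earlier results of these data known. Sample values are given for Col5a2, Ogn and Pdgfrb, the 3 members with the highest means, up to 6 largest increases and decreases among called members, and members with probe sets called both higher and lower. Named with sample values after their values were seen were Loxl1, the second probe set of Col4a6 and the genes with an SD over 1 (for Lox also its second probe set). Of the pathway lists and the markers up to 4 called genes with the largest change are named, and of the macrophage, retina and pigment markers, after their values were seen, those with a call on which single samples bear. Of the remaining lists, lens fibre markers had 2 higher and 2 lower of 8 (50.0% called, against 40.7% of all genes). Lens epithelium markers had 1 higher and none lower of 5 (20.0% called).

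Alternatives were quantile normalization, centring on medians, a constant of 16 added, a filter at the median, another variance model, the methods' t-test, the replicate number as a block, the control covariate, dnBrg1 replicates 1 and 2 alone, and each sample left out. Leaving out dnBrg1 replicates 1 and 4 together was added after the data were seen.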

Additional observations from a re-analysis of the deposited data

Results flagged for a closer look

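The 4 samples of each genotype were searched for 1 value far from the other 3, relative to the range of the 4, on the brightest probe set of each member. Of 100 groups searched 4 held such a value. Chance flags about 1 in 20 groups.

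Col17a1, a transmembrane collagen of the hemidesmosomes of surface epithelia, stood at 5.47 in dnBrg1 replicate 1, 1.76 above the next dnBrg1 sample. This is the sample in which the 15 epidermal markers summed to 30420, against 2489 to 2754 in dnBrg1 replicates 2 to 4 and 2771 to 3899 in wild type lenses. Eln stood at 8.96 in dnBrg1 replicate 4, 2.54 above the next dnBrg1 sample, and this is the sample with the highest sum of skeletal muscle markers, 8619. Col18a1 stood at 11.07 in dnBrg1 replicate 3, 0.45 above the next dnBrg1 sample. Col8a1 stood at 5.92 in wild type replicate 4, 0.34 above the next wild type sample. The part of other tissues in the Col17a1 and Eln values was not tested.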

How the results depend on the processing

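With the settings of the report 9229 probe sets, 27 member probe sets and 16 member genes were called. With the control covariate these counts were 1442, 3 and 2, and Col15a1, Col18a1 and Ogn turned to 0.40, 0.12 and 0.16 on their brightest probe sets. Of the 16 member genes 1 kept its call there. With dnBrg1 replicates 1 and 2 as the only dnBrg1 samples 5640 probe sets were called, and 5371 without dnBrg1 replicates 1 and 4 together; fewer samples entered both fits. Leaving out 1 sample gave 7700 to 10172 probe sets, 19 to 33 member probe sets and 12 to 20 member genes. The control 3′ to 5′ difference was then -1.63 to -1.22, each at an exact permutation p of 0.0571, the smallest that 3 against 4 samples allow.

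Same-numbered samples of the 2 genotypes deviated from their group means with correlations of -0.187 to 0.157, and differently numbered ones with -0.158 to 0.201. Whether the replicate numbers pair the samples, for instance by litter, is not settled by these values. With the replicate block 7963 probe sets were called, 28 member probe sets and 18 member genes. Of the 16 member genes 13 kept their call, Col9a1, Col15a1 and Col18a1 lost it, and 5 others gained one, 8 being higher and 10 lower in all. Those that gained were Col3a1 (1.85), Dcn (1.58), Lum (1.80) and Postn (1.34), called higher, and Col6a2 (-1.38), called lower. The methods' t-test, after Benjamini-Hochberg adjustment, called 20 member probe sets and 13 member genes. Quantile normalization, centring on medians, the added constant and the other variance model kept all 16 calls.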
